A study of Mus musculus with 15 samples.

Results

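Heat shock and small chaperone genes were followed in the left ventricle of mice with kidney disease. The set holds 10 genes of 55487 in each deposited table, picked by name from the heat shock and small chaperone families: the HSP70 genes Hspa1a, Hspa1b and Hspa8, the HSP110 genes Hspa4l and Hsph1, the HSP90 gene Hsp90aa1, the J-domain gene Dnajb1, and the small heat shock protein genes Hspb1, Hspb6 and Hspb7. Molecular chaperones bind proteins that are unfolded or partly folded, keep them from aggregating and help them fold. HSP70 proteins do so in cycles of ATP binding and hydrolysis, which J-domain proteins start and HSP110 proteins reset by exchanging the nucleotide, while HSP90 acts later on a narrower set of clients. Small heat shock proteins need no ATP, hold unfolded proteins until the others arrive, and are abundant in heart muscle, where they bind sarcomere and cytoskeletal proteins; heat shock factor HSF1 binds the DNA of many of these genes under stress.

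RNA-seq was made from 15 male mice, each 1 library: 7 with chronic kidney disease that carried a Col4a5 mutation, and 8 wild type littermates without it. All were 225 days old and on normal chow, and the tissue came from the left ventricular free wall at the midline. At this age the kidney disease animals were, per the labels, at a stage like human chronic kidney disease stage 4-5. The labels call the mutation a knockdown in the genotype and a knockout of collagen IV in the design text, and no promoter or tissue restriction is given for it. They name isoflurane in the titles and ketamine with xylazine in the protocol as the anaesthetic, which is the same for both groups in either text.

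Library totals ran from 54263014 to 65519279 counts in kidney disease and from 48748379 to 57962094 counts in wild type. Col4a5, the mutated gene, had 13.5 ± 2.97 CPM in kidney disease and 57.0 ± 4.93 CPM in wild type (SD, n = 7 and 8), a log2 fold change of -2.08 (SE 0.11; edgeR adjusted p = 3.0e-09). The 10 ventricular cardiomyocyte markers, none of them at 0 and none called, summed to between 105071 and 123344 CPM in kidney disease animals and to between 120940 and 128284 CPM in wild type animals. The summed macrophage markers were 424 to 598 CPM in kidney disease against 309 to 370 CPM in wild type, with 8 of 10 higher; 5 of 6 B cell markers (summed 16.9 to 27.4 CPM in kidney disease, 7.10 to 15.001 CPM in wild type) and 4 of 8 fibroblast markers were higher too. No marker of atrial cardiomyocytes, endothelium, smooth muscle, red cells or adipocytes passed, nor any of 14 immediate early genes. All 6 red cell markers were lower in kidney disease, each with an unadjusted edgeR p under 0.05 (median log2 fold change -0.62). The summed atrial markers varied widely within both groups, from 31.7 to 1690 CPM in kidney disease and from 34.4 to 1401 CPM in wild type. In bulk tissue fewer cells of a type and less RNA per cell cannot be told apart. The gene with the most counts was Ttn, which encodes titin of the sarcomere, in 5 libraries (numbers 4, 5 and 7 of kidney disease, 6 and 7 of wild type); in the remaining 10 it was the mitochondrial gene mt-Co1. Wild type 7 was the lowest of its group for 7 of the 10 chaperone genes, and kidney disease 7 the lowest of its group for 5. Both are led by Ttn. Of the other Ttn-led libraries, kidney disease 5 was the highest of its group for 4 genes and the lowest for 1. Wild type 6 was the highest for 2 and the lowest for 0, and kidney disease 4 was neither for any. Values without wild type 7 are given below for single genes, with its low place known. Leaving out the lowest wild type library raises the wild type mean. Such values are therefore no separate test of a lower level in kidney disease.

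None of the 10 genes passed the test between kidney disease and wild type (edgeR quasi-likelihood test, Benjamini-Hochberg adjustment over 20718 genes, threshold 0.05). Across all genes tested 1.28% passed, 168 higher and 98 lower in kidney disease, or 435 higher and 61 lower when libraries were scaled by their totals alone. DESeq2 called 1 of the 10, Hspb6, lower in kidney disease, against 1.53% of its 17114 genes called lower. Hspb6 and Hsph1 had an unadjusted edgeR p under 0.05, both lower, as did 12.4% of all genes in either direction and 5.55% in that of lower values. The log2 fold change, kidney disease minus wild type, was below 0 for 8 of the 10 and for 48.8% of all genes. It ran from -0.28 (Hspb6) to 0.01 (Hsp90aa1 and Hspa1b), with a median of -0.11 against 0.00 for all genes. The groups overlapped for all 10 genes, as they did for all but 0.565% of the genes tested. Neither among the 10 mt-Co1-led libraries nor among the 5 Ttn-led ones did any of the 10 genes pass (edgeR, 0 called); few of all genes did there, 0.242% higher and 0.174% lower among the mt-Co1-led libraries and 1 higher and 2 lower of 22393 genes among the Ttn-led ones, so the 0 says little. Macrophage marker levels differed between the groups, as given above, and their part in these values was not tested.

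**Figure D1:**
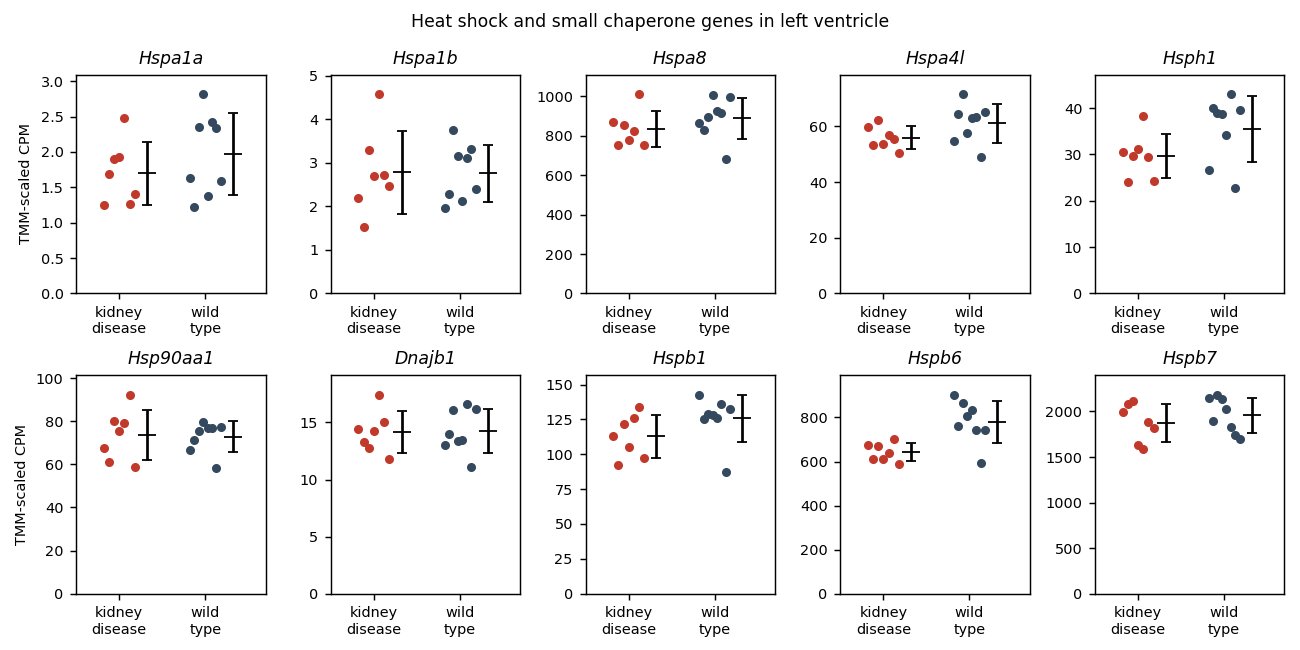
CPM scaled by TMM in each animal for the 10 genes, with kidney disease in red on the left and wild type in dark blue on the right; bars are the mean and SD (n = 7 and 8) and each panel starts at 0. Hspb6 is the panel in which the groups are farthest apart, with wild type 7 the lowest wild type point.

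Per length, the small heat shock protein genes and Hspa8 were the most abundant of the set. Mean deposited FPKM over all 15 libraries was 690 for Hspb7, 310 for Hspb6, 200 for Hspa8, 116 for Hspb1 and 18.6 for Hsp90aa1. A higher mean FPKM than that of Hspb7 was found in 48 tested genes, and than that of Hspb6 in 115. The lower group followed with mean FPKM values of 5.10 for Hspa4l, 4.50 for Hsph1, 4.43 for Dnajb1, 0.993 for Hspa1b and 0.623 for Hspa1a. The order held in 15 of 15 libraries down to Hspa4l. Among lower neighbours, Hspa4l exceeded Hsph1 in 12 of 15 libraries, Hsph1 exceeded Dnajb1 in 7, and Hspa1b exceeded Hspa1a in 14, and the ranges of these neighbours overlapped.

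The small heat shock protein genes come first. Hspb6 (ENSMUSG00000036854, chr7:30552178-30555443, plus strand, GRCm38) encodes HSP20, a small heat shock protein of muscle that binds actin-linked proteins and is phosphorylated by cyclic nucleotide-dependent kinases. Its TMM-scaled values in kidney disease were 588 CPM at the lowest, 639 at the median and 703 at the highest, and in wild type 594, 784 and 903 CPM. All 7 kidney disease values were below the wild type mean, and 7 of 8 wild type values were above the highest kidney disease value; the exception was wild type 7. The means were 643 ± 42.2 CPM in kidney disease and 781 ± 95.7 CPM in wild type, a log2 fold change of -0.28 (SE 0.076, 95% interval -0.44 to -0.12), with an unadjusted p of 0.00153 and an adjusted p of 0.078 in edgeR. The adjusted p over 27 alternatives ran from 0.00835 to 0.763, and the log2 fold change was below 0 in all 27, from -0.33 to -0.13. It passed in 6 of them. Of the 15 that left out a library, where the edgeR adjusted p reached 0.163, 1 passed. That was the removal of wild type 7, the lowest wild type value (edgeR adjusted p = 0.0083, log2 fold change -0.33). Of the 12 others 5 passed, among them DESeq2 (adjusted p = 0.013). Among the 10 mt-Co1-led libraries the log2 fold change was -0.30 (edgeR adjusted p = 0.083), and among the 5 Ttn-led ones -0.13 (edgeR adjusted p = 0.763). Hspb6 shares 122 exon bases with Proser3 on the other strand, 5.31% of its exon length, and the counting strand is not given in the sources used here.

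Hspb7 (ENSMUSG00000006221, chr4:141420779-141425311, plus strand) encodes the cardiovascular small heat shock protein, which is concentrated in heart and skeletal muscle. Its values were 1590, 1888 and 2111 CPM at the lowest, median and highest in kidney disease, and 1700, 1960 and 2184 CPM in wild type. The groups overlapped over most of their range, at 1874 ± 205 CPM in kidney disease and 1957 ± 192.5 CPM in wild type, a log2 fold change of -0.06 (SE 0.078, edgeR adjusted p = 0.826). Hspb1 (ENSMUSG00000004951, chr5:135887919-135889563, plus strand) encodes HSP25, the mouse form of HSP27, which binds actin filaments and unfolded proteins. It had 92.3, 113 and 134 CPM at the lowest, median and highest in kidney disease, and 87.3, 128 and 143 CPM in wild type, so that the groups overlapped. The 87.3 CPM was wild type 7. The log2 fold change was -0.16 (SE 0.095, 95% interval -0.36 to 0.04, edgeR adjusted p = 0.547), and -0.22 without wild type 7 (edgeR adjusted p = 0.151, range over alternatives 0.151 to 0.974).

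The small heat shock protein genes were also set against each other within a library, as a log2 ratio of 2 genes, which needs no scaling between libraries. The pairs were chosen with the values known, after Hspb6 had given the smallest p of the 10 genes. The p-values of the ratios, those of the subsets included, do not account for that choice, so they add no separate test of Hspb6. The log2 ratio of Hspb6 to Hspb7 averaged -1.54 ± 0.157 in the 7 kidney disease animals and -1.33 ± 0.108 in the 8 wild type animals (SD), a difference of -0.21 (two-sided exact permutation p = 0.0103 over 6435 splits, adjusted p = 0.0308 over 3 ratios). The difference was -0.25 to -0.17 when any 1 library was left out (exact permutation p = 0.00266 to 0.0236), -0.30 in the mt-Co1-led libraries (exact permutation p = 0.00476, the smallest that 210 splits allow) and -0.03 in the Ttn-led ones, where 10 splits allow no p below 0.1. Hspb6 against Hspb1 differed by -0.12 (exact permutation p = 0.0869, adjusted p = 0.130), and Hspb1 against Hspb7 by -0.09 (exact permutation p = 0.466).

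Hspa1a (ENSMUSG00000091971, chr17:34969190-34972156, minus strand) and Hspa1b (ENSMUSG00000090877, chr17:34956436-34959238, minus strand) encode the stress-inducible HSP70 proteins, which are low in unstressed tissue. They lie 9951 bases apart and each has 1 exon. Their coding sequences are 99.43% identical, with 8 mismatched bases and 3 gap columns in the alignment, and 67.81% of 100-base windows are identical, so counts could move between them or be dropped. Hspa1a had 1.25, 1.69 and 2.48 CPM at the lowest, median and highest in kidney disease, and 1.22, 1.99 and 2.81 CPM in wild type. Hspa1b had 1.53, 2.697 and 4.57 CPM in kidney disease and 1.96, 2.75 and 3.75 CPM in wild type. The groups overlapped almost fully for both, and neither passed: the log2 fold change was -0.21 (SE 0.20) for Hspa1a and 0.01 (SE 0.19) for Hspa1b (edgeR adjusted p = 0.752 and 0.991). Their counts summed to 4.48 ± 1.32 CPM in kidney disease and 4.73 ± 1.18 CPM in wild type, a log2 fold change of -0.08 (SE 0.18, edgeR adjusted p = 0.920). Hspa1a carried 66 to 163 counts a library and Hspa1b 86 to 300, which are the fewest of the set.

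Hspa8 (ENSMUSG00000015656, chr9:40800984-40810087, plus strand) encodes HSC70, the constitutive HSP70. It had 755, 823 and 1010 CPM at the lowest, median and highest in kidney disease and 681, 906 and 1007 CPM in wild type, and the groups overlapped; the log2 fold change was -0.09 (SE 0.082, edgeR adjusted p = 0.733), and -0.14 without wild type 7 (edgeR adjusted p = 0.381, range over alternatives 0.381 to 0.967). Hspa4l (ENSMUSG00000025757, chr3:40744495-40796103, plus strand), an HSP110 family gene, had 50.5, 55.5 and 62.2 CPM in kidney disease and 48.9, 63.3 and 71.5 CPM in wild type, also overlapping, with a log2 fold change of -0.13 (SE 0.071, edgeR adjusted p = 0.513), and -0.17 without wild type 7 (edgeR adjusted p = 0.197, range over alternatives 0.197 to 0.912). Hsph1 (ENSMUSG00000029657, chr5:149614287-149636376, minus strand), which encodes HSP105, had 24.1, 29.7 and 38.4 CPM in kidney disease and 22.8, 38.9 and 42.9 CPM in wild type. The groups overlapped, and wild type 7 was the lowest of all 15 libraries. Its log2 fold change was -0.26 (SE 0.12, unadjusted p = 0.0489, edgeR adjusted p = 0.400), and -0.33 without wild type 7 (edgeR adjusted p = 0.116, range over alternatives 0.116 to 0.958).

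Hsp90aa1 (ENSMUSG00000021270, chr12:110690605-110702728, minus strand) encodes the stress-inducible HSP90 alpha. It had 59.0, 75.4 and 92.3 CPM at the lowest, median and highest in kidney disease and 58.4, 76.2 and 79.8 CPM in wild type. The groups overlapped, although kidney disease 6 at 92.3 CPM and kidney disease 3 at 80.2 CPM were above the highest wild type value. The log2 fold change was 0.01 (SE 0.090, edgeR adjusted p = 0.976). Dnajb1 (ENSMUSG00000005483, chr8:83608193-83612653, plus strand) encodes HSP40, the J-domain partner that starts the HSP70 cycle. It had 11.8, 14.2 and 17.4 CPM in kidney disease and 11.1, 13.7 and 16.7 CPM in wild type, which also overlapped, with a log2 fold change of -0.01 (SE 0.092, edgeR adjusted p = 0.981). Without wild type 7 the log2 fold change was -0.03 for Hsp90aa1 and -0.06 for Dnajb1 (edgeR adjusted p = 0.939 and 0.843). The signs of Hspa1b, Hsp90aa1, Dnajb1 and Hspb7 turned under some alternatives.

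**Figure D2:**
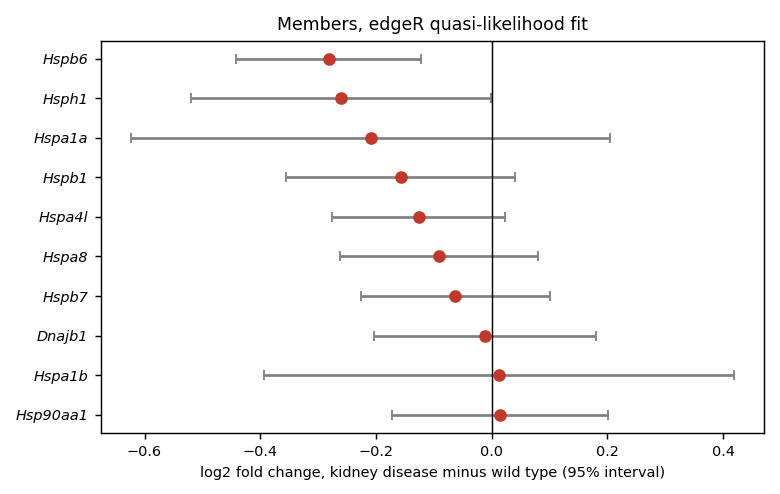
Log2 fold change of each of the 10 genes, kidney disease minus wild type, with its 95% interval from edgeR. The interval of Hspb6, -0.44 to -0.12, and that of Hsph1 lie below 0, and the other 8 include 0.

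Heat shock elements, the DNA letters that HSF1 binds, were searched for in promoter windows of 250 bases before to 50 bases after the start, taken from RefSeq (GRCm38.p6). Windows were found for 8 of the 10 genes, in 11 windows; Hspa8 and Hsp90aa1 had no match in the table. The letters GAANNTTC and TTCNNGAA, and a 3-unit run that holds both (GAANNTTC, any 2 bases, then GAA), were read on both strands. The 5 windows below are the ones in which a match was found, with one window shown for each gene, and capitals mark every match to these letters; the strand is the gene's. Positions count from the start, which is 0.
Hsph1, chr5:149636266-149636565, minus strand: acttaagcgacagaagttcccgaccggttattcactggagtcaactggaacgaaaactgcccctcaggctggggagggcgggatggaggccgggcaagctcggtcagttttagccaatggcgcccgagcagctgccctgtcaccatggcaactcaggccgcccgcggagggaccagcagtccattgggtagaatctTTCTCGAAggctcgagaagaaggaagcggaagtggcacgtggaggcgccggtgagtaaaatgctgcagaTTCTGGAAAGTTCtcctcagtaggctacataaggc
Hspa1a, chr17:34972107-34972406, minus strand: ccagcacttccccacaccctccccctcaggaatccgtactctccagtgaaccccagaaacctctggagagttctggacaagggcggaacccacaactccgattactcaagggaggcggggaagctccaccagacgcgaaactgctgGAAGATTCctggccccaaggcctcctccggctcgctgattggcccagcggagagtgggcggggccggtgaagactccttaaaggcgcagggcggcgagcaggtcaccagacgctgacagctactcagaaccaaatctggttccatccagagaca
Hspa1b, chr17:34959189-34959488, minus strand: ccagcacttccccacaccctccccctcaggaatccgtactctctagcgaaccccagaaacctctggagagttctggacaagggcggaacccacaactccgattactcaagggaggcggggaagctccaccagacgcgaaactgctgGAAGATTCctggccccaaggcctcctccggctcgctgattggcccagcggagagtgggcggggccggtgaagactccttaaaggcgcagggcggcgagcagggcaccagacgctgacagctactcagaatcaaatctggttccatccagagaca
Hspb1, chr5:135887669-135887968, plus strand: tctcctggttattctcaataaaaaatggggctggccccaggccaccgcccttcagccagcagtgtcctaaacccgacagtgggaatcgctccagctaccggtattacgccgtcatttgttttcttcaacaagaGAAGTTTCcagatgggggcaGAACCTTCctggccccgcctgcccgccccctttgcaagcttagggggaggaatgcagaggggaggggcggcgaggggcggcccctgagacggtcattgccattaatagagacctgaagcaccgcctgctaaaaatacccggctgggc
Hspb6, chr7:30553051-30553350, plus strand: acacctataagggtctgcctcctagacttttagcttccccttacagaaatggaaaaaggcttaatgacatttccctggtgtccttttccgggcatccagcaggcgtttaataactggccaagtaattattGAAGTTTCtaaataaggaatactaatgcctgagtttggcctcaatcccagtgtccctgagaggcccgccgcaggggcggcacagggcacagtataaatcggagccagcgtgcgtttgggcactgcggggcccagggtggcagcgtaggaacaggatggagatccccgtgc

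The 3-unit run was found only in Hsph1, on the opposite strand to the gene. It was found in 0.603% of 32851 promoters of the same length, or 0.662% of 27025 genes. It lay after the start, at 15 to 27 in the window shown and at 36 to 48 in the second window. GAANNTTC stood in windows of Hsph1, Hspa1a, Hspa1b, Hspb1 (2 times) and Hspb6, and in 7.86% of all promoters or 9.04% of genes. It was at -104 in both Hspa1a and Hspa1b, whose windows differ at 4 of 300 bases. In Hspb1 it was at -117 and -97, and in 1 of the 2 Hspb6 windows at -120. The other Hspb6 window held none of the heat shock letters. TTCNNGAA stood in Hsph1 alone of the 8 genes, and in 8.52% of all promoters or 9.60% of genes. Hspb6 also held the letters TATAAA at -29, as 13.6% of promoters did. A match is a run of letters, and HSF1 binding was not measured.

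Several of the genes varied together among animals of a group. Genes outside the chaperone lists, given further below, varied with them too (Tnfaip2, r = 0.944 with a mean profile of 5 of the 10). The share of pairs that would pass among all genes was not computed, so the counts here cannot be read as particular to these genes. For 10 pairs, the correlation of log2 CPM with each group's mean removed was computed over 15 libraries. Pearson's r and Spearman's rho were used, with a two-sided permutation p (100000 resamples, adjusted over the 10 pairs). By r 8 pairs passed, and 5 by both. Hsph1 with Cirbp and Hsph1 with Rbm3 are in both counts, with r below 0 and a partner outside the set. Within the set 6 passed by r. Those that passed by both were Hsph1 with Hspa4l, Hspb1 with Hspb6, and Hspa1a with Hspa1b. Hsph1 and Hspa4l, the HSP110 pair, had r = 0.756 (adjusted p = 0.0038) and rho = 0.611 (adjusted p = 0.038) in this permutation test. Without wild type 1 and 7, the libraries farthest from the median of Hsph1, r was 0.486, and it was 0.70 within the 10 libraries led by mt-Co1. Hspb1 and Hspb6 had r = 0.806 (permutation adjusted p = 0.0036) and rho = 0.679 (permutation adjusted p = 0.023), with 0.574 without kidney disease 2 and wild type 7, and 0.626 within the libraries led by mt-Co1. Hspa1a and Hspa1b had r = 0.687 and rho = 0.711 (permutation adjusted p = 0.0093 and 0.020), and 0.611 without kidney disease 5 and wild type 2. Reads shared by these near-identical genes were not told apart, and their part in this value was not tested. Within the libraries led by mt-Co1 it was 0.530. Hsph1 had r = 0.711 with Hsp90aa1 (permutation adjusted p = 0.0073; rho = 0.504, adjusted p = 0.083; 0.522 in the mt-Co1-led libraries) and r = 0.601 with Hspa8 (permutation adjusted p = 0.026; rho = 0.361, adjusted p = 0.234; 0.430 within those libraries). Hspb6 had r = 0.616 with Hspb7 (permutation adjusted p = 0.017; rho = 0.557, adjusted p = 0.055; 0.548 within those libraries). Hspa1a had r = 0.168 with Dnajb1 and -0.098 with Hspb1, and neither passed (permutation adjusted p = 0.607 and 0.734). Without the 2 farthest libraries 1 of the 8 pairs, Hsph1 with Cirbp, still passed. The other 7 kept their sign, with r from 0.315 to 0.611 for the 6 above 0 and -0.524 for Hsph1 and Rbm3 (permutation adjusted p = 0.0965 to 0.369). In the 10 mt-Co1-led libraries 0 of the 10 pairs passed (permutation test, lowest adjusted p = 0.084 by r and 0.359 by rho). None passed within kidney disease alone (n = 7, permutation test), and 5 did within wild type (n = 8), Hsph1 with Cirbp among them.

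**Figure D3:**
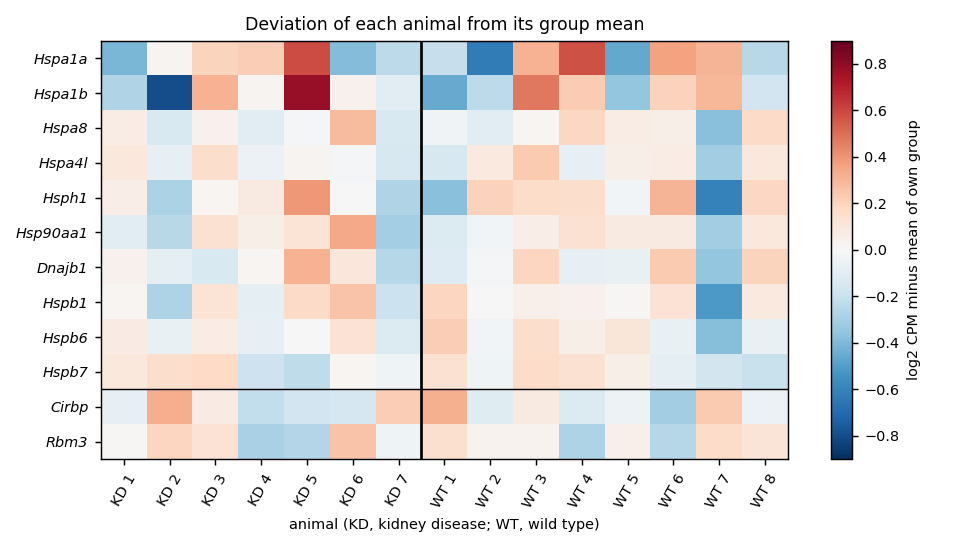
Deviation of log2 CPM from the group mean for the 10 genes, with Cirbp and Rbm3 below the line; kidney disease libraries are to the left of the vertical line and wild type to its right, with red above and blue below the mean. Wild type 7 is blue for most of the 10 genes.

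Cirbp, an RNA-binding protein gene that rises with mild cooling in cultured cells, ran opposite to Hsph1. Their r was -0.830 and rho -0.746 (permutation adjusted p = 0.0018 and 0.020). It was -0.788 without wild type 1 and 7 (permutation adjusted p = 0.0143), which is the 1 pair that still passed. It was -0.831 within kidney disease (permutation adjusted p = 0.154) and -0.852 within wild type (permutation adjusted p = 0.029). In the 10 mt-Co1-led libraries it was -0.824, where the adjusted permutation p was 0.084 and rho was -0.467. The 5 libraries led by Ttn were too few for a value. Hsph1 and Rbm3, the second cold-inducible RNA-binding protein gene, had r = -0.575 and rho = -0.607 (permutation adjusted p = 0.031 and 0.038), with -0.524 when wild type 1 and 7 were left out and -0.416 in the mt-Co1-led libraries. Set against each of the 10 genes, a comparison added after the data were seen, Cirbp had an r below 0 with 9, and 3 passed by r, of which 2, Hsph1 and Dnajb1, also passed by rho. Hsp90aa1 had r = -0.717 (permutation adjusted p = 0.014) and rho = -0.575 (permutation adjusted p = 0.092), and r = -0.694 in the mt-Co1-led libraries. Dnajb1 had r = -0.664 and rho = -0.693 (permutation adjusted p = 0.022 and 0.028), and r = -0.371 in those libraries. Hspb7 was the one with r above 0, at 0.416.

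**Figure D4:**
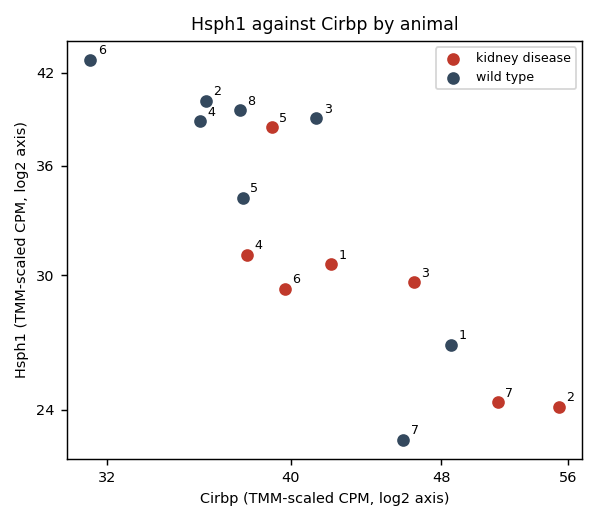
Hsph1 against Cirbp in each animal (TMM-scaled CPM, log2 axes), kidney disease in red and wild type in dark blue. Animals with more Cirbp tended to have less Hsph1 in both groups, though the pair did not pass within kidney disease. There r was -0.831 (permutation adjusted p = 0.154), and in wild type it was -0.852 (permutation adjusted p = 0.029).

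Between the groups, Rbm3 was higher in kidney disease and Cirbp did not pass. Rbm3 had 43.3 ± 6.33 CPM in kidney disease and 32.8 ± 3.69 CPM in wild type, a log2 fold change of 0.40 (SE 0.089, edgeR adjusted p = 0.032, range over alternatives 0.0026 to 0.68), and all 7 kidney disease values were above the wild type mean. It passed in 17 of 27 alternatives. Removing kidney disease number 4, 5 or 7, or number 1, 2, 7 or 8 of wild type, kept the call, and removing any of the other 8 ended it (edgeR adjusted p = 0.022 to 0.071 over all 15). Rbm3 shares 94 exon bases with its antisense gene Rbm3os. Cirbp had 44.6 ± 6.73 CPM in kidney disease and 39.3 ± 5.65 CPM in wild type, with a log2 fold change of 0.18 (SE 0.096, edgeR adjusted p = 0.475). HSF1's own gene, Hsf1, had a log2 fold change of -0.08 (SE 0.054, edgeR adjusted p = 0.598).

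The chaperone genes were then counted by family, with the 10 genes above among them. Of 76 tested chaperone list genes, 66 of them outside the 10, 1 passed, Hspa12a, lower in kidney disease, and none was higher. All genes gave 0.473% lower and 0.811% higher. Hspa12a, a distant HSP70 relative, had 41.5 ± 4.98 CPM in kidney disease and 52.6 ± 6.21 CPM in wild type, a log2 fold change of -0.34 (SE 0.083, edgeR adjusted p = 0.047, range over alternatives 0.0062 to 0.73), and all 7 kidney disease values were below the wild type mean. It passed in 10 of 27 alternatives; removing kidney disease number 7, or number 1, 7 or 8 of wild type, kept the call and removing any of the other 11 ended it (edgeR adjusted p = 0.032 to 0.100 over all 15). By family, the HSP70 and HSP110 list had 11 of 15 below 0 and a median of -0.12, and the HSP90 list 3 of 4 and -0.08. The J-domain list had 11 of 16 below 0 and a median of -0.02, and the small heat shock protein list 8 of 8 and -0.08. These 4 lists hold the 10 genes. Without them the HSP70 and HSP110 list had 7 of 10 below 0 and a median of -0.098, and the HSP90 list 3 of 3 and -0.087. The J-domain list then had 10 of 15 and -0.025, and the small heat shock protein list 5 of 5 and -0.080. The co-chaperones had 14 of 18 below 0 and a median of -0.06, the chaperonins 7 of 10 and -0.01, and the heat shock factors and regulators 4 of 5 and -0.00. The exception among those was Hsf5, with 1 to 22 counts a library and 0.26 (SE 0.45, edgeR adjusted p = 0.888). Cryaa of the small heat shock protein list was too low to test. These compare with 48.8% of all genes below 0 and a median of 0.00.

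**Figure D5:**
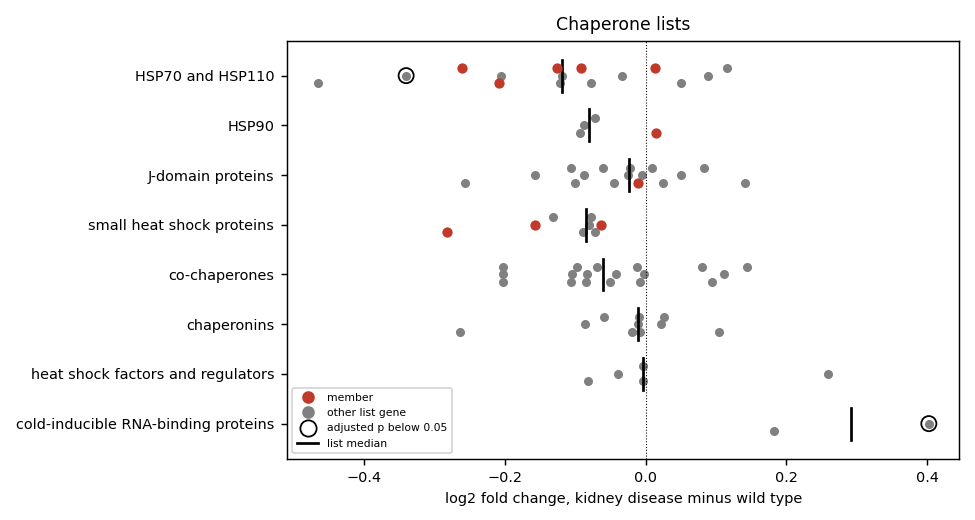
Log2 fold change, kidney disease minus wild type, of each gene by family, with members in red, list medians as black bars and a ring around genes with an adjusted p below 0.05. Only Hspa12a, at -0.34, and Rbm3, at 0.40, are ringed.

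Among the chaperone genes with the smallest p, none but Hspa12a passed. Bag3, a co-chaperone that works with HSP70 and small heat shock proteins in muscle, had a log2 fold change of -0.20 (SE 0.059, edgeR adjusted p = 0.105). Hspd1, the mitochondrial HSP60 chaperonin, had -0.26 (SE 0.080, edgeR adjusted p = 0.127), Unc45b, a myosin chaperone, -0.20 (SE 0.065, edgeR adjusted p = 0.158), and Dnajb6, a J-domain protein, 0.14 (SE 0.049, edgeR adjusted p = 0.194). Cryab, which encodes the small heat shock protein alpha-B crystallin, had -0.13 (edgeR adjusted p = 0.620); it shares 252 exon bases with Hspb2, another small heat shock protein gene, on the other strand, and Hspb2 had -0.09 (edgeR adjusted p = 0.755). Hspa1l, an HSP70 gene next to Hspa1a, had the lowest value, -0.47 (SE 0.20, edgeR adjusted p = 0.326), but 71.9% of its exon bases overlap an antisense gene. Hyou1, an HSP110 relative of the endoplasmic reticulum, had -0.21, and the J-domain gene Dnajb5 -0.26 (edgeR adjusted p = 0.346 and 0.252). The HSP90 genes Hsp90ab1 (cytosolic) and Trap1 (mitochondrial) each had -0.09, and the chaperonin subunit gene Cct4 0.10 (edgeR adjusted p = 0.595, 0.553 and 0.549). Without wild type 7, edgeR called 6 chaperone list genes lower, Bag3, Fkbp4 (a co-chaperone of HSP90), Hspa12a, Hspb6, Hspd1 and Unc45b. The share of all genes called lower was then 0.939%, against 0.473% with it. Wild type 7 held the lowest wild type value of Bag3, Hspb6, Hspd1 and Unc45b, so leaving it out lowers their log2 fold change. These calls are no separate test. DESeq2 called 4 lower, Bag3, Hspa12a, Hspb6 and Hspd1, and 1.53% of all genes.

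Likeness to the mean profile of Hsph1, Hspa8, Hsp90aa1, Hspa4l and Dnajb1 over the 15 libraries was highest for Tnfaip2 (r = 0.944), Cldnd1 (0.913), Smurf2 (0.901), Josd1 (0.888) and P4ha1 (0.873), out of 8235 protein-coding genes with a mean of at least 10 CPM. Hspb1 had r = 0.820 with that profile, Hspb6 0.587, Hspa1b 0.324, Hspa1a 0.045 and Hspb7 0.007. Kidney disease 7 was the lowest kidney disease library for each of the 5 genes of highest likeness, and wild type 7 the lowest wild type library. These values are a description, since the profile comes from the same libraries.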

How the data were processed

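Each deposited table holds, for 1 library, the raw count, CPM and FPKM of 55487 genes. Per the submitters' processing notes, tools were bcl2fastq, STAR (2.7.9a), Subread and, for counting, featureCounts (2.0.3), on build GRCm38. The deposited CPM and FPKM values were recomputed from the counts within a relative deviation of 5.1e-15 and 1.4e-13. Per the labels' protocols, total RNA with an integrity number of at least 8.0 was depleted of ribosomal RNA. The sources used here do not give the counting options, strand included. Symbols and positions came from GENCODE M21 (GRCm38), which held 55227 of the identifiers. Nothing in the labels says how animals were bred beyond their being littermates, so the main tests treat the 15 animals as independent. Their p-values set the difference between groups against the spread among animals within a group. The part of shared litters was not tested.

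Genes were kept with filterByExpr (minimum count 10), scaled with TMM and fitted in edgeR 4.0.16 under R 4.3.3; quasi-likelihood F tests ran over 20718 genes, with Benjamini-Hochberg adjustment and a threshold of 0.05. CPM in the text is TMM-scaled unless called deposited; ± is the SD. Correlations used log2 CPM with a prior count of 0.5. The alternatives were RLE, upper-quartile and library-total scaling, DESeq2 1.42.0, limma-voom 3.58.1, 2 filters, removal of mitochondrial genes, a replicate block, the leading gene as a covariate or subset, and leaving out each library; the subset led by Ttn, the ratios, and Cirbp against each gene were added after the data were seen. The genes and lists were chosen with earlier results of these data known. The rule for named genes took the 10 genes, each chaperone list gene that passed, 2 more of each list by smallest p, Hsf1, Cirbp, Rbm3, Col4a5 and the 5 genes of most similar pattern; Fkbp4, Ttn, mt-Co1, Cryaa and Proser3 fall outside it and were picked with their values known.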

Additional observations from a re-analysis of the deposited data

Results flagged for a closer look

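Among 66 groups of values (each named gene in each group of animals), 7 had a highest or lowest animal far from the rest. Chance flags about 1 in 20 groups, but these genes vary together and some were named for their likeness to others, so the 7 cannot be set against that rate. In wild type 7 the values were low: Hspb1 at 87.3 CPM, Hyou1 at 59.6 CPM, Cryab at 853 CPM, and Cldnd1 at 19.1 CPM and Josd1 at 25.1 CPM, both named for a profile in which this library is low. In kidney disease 6, Hspb2 was high at 25.4 CPM and Unc45b low at 153 CPM. Ttn had the most counts in wild type 7, and its part in these values was not tested.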

How the results depend on the processing

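Col4a5 passed in all 27 alternatives. Among the 10 genes none was called higher in any, and Hspb6 alone was called lower: 1 gene under upper-quartile scaling, library totals, DESeq2, the 1 CPM filter and the leading-gene covariate, and 0 to 1 when a library was left out. The summed Hspa1a and Hspa1b kept its sign and never passed. Of all genes tested, 0.811% were called higher and 0.473% lower; the shares were 2.10% and 0.294% with library totals, 2.22% and 1.53% with DESeq2, 0.438% and 0.164% with no filter, 1.42% and 1.05% with the 1 CPM filter, 1.62% and 0.907% with the covariate, 0.242% and 0.174% in mt-Co1-led libraries, and 0.0045% and 0.0089% in Ttn-led ones. Leaving out a library gave 0.325% to 0.959% higher and 0.146% to 0.939% lower, the highest of both without wild type 7. Whether replicate numbers pair the animals is not known. Same-number correlations ran from -0.180 to 0.396, with the own number best in 2 of 7. With the replicate block 0.321% of genes were higher and 0.243% lower, Hspb6 had -0.28 (edgeR adjusted p = 0.083), and no chaperone gene was called (0). Chaperone list genes called lower were 4 with DESeq2, 3 with the 1 CPM filter, 2 with the covariate, and 0 with no filter or within either subset; 1 was called higher with library totals, and leaving out a library gave 0 to 6 lower. Of correlated pairs, 1 passed without the 2 farthest libraries, 0 within kidney disease, 5 within wild type and 0 in mt-Co1-led libraries. Signs turned for Dnajb1 (0.055 with library totals, 0.022 with the block, 0.057 within libraries led by Ttn; -0.069 to 0.029 leaving out a library), Hspb7 (0.0020 with library totals, 0.0049 within libraries led by mt-Co1), Hspa1b (-0.010 with limma-voom, -0.048 with the block, -0.060 with the covariate, -0.10 within libraries led by mt-Co1; -0.15 to 0.12 leaving out a library), Hsp90aa1 (-0.048 to 0.061 leaving out a library), and within libraries led by Ttn Hsp90ab1 (0.0039) and Hspb2 (0.093). The cause was not tested.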
